A study of Homo sapiens with 4 samples.

Results

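The genes of HLA class I antigen presentation were examined as 9 named genes, HLA-B, HLA-C, HLA-E, HLA-F, B2M, TAP1, TAP2, TAPBP and NLRC5, which were taken by gene symbol from a table of 22637 genes. All 9 were found, and all 9 passed the expression filter in every comparison. RNA-seq was performed on 4 human prostate cancer cell lines with 1 library per line. LNCaP is a castration-sensitive line and C4-2B a castration-resistant line derived from LNCaP. LN-OlapR was derived from LNCaP, and 2B-OlapR from C4-2B, by culture in rising concentrations of olaparib, an inhibitor of PARP enzymes. All 4 lines are labelled prostatic adenocarcinoma and untreated, and the deposited description says that they were plated without a selection agent before RNA isolation, although the study's methods keep the resistant lines in olaparib for maintenance. Each line is a single culture here, and whether the resistant lines are clones is not stated in the sources used here. The plating time is 48 hours in the deposited description and longer in the study's methods.

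Values are estimated counts per gene, rounded to whole numbers, and libraries held 19950537 to 26394267 counts. Levels are given as normalized CPM, read counts scaled to a common library size by the TMM method of edgeR. The log2 ratio of a resistant to its parental library used a pseudocount of 0.5 counts, and a gene was analyzed where its mean over the 2 libraries compared reached 1 normalized CPM. With 1 library per line there is no replicate check and no p-value. Intervals are at the 95% level, by the Wilson method for levels and normal for ratios, and cover counting error only, not the difference between cultures. All 11 luminal prostate markers fixed for the label, KLK2, KLK3 and TMPRSS2 among them, reached 1 normalized CPM in each library. Of 12 leukocyte markers only CD14 and CD68 had values, and they summed to 0.670 to 5.36 normalized CPM. The other 10 are not among the genes listed in the deposited counts. CD68 alone stood at 2.17 normalized CPM in 2B-OlapR, 4.20 in C4-2B, 5.14 in LN-OlapR and 0.409 in LNCaP. Like HLA-E and HLA-F below, CD68 was above LNCaP in LN-OlapR and below C4-2B in 2B-OlapR, and its part in those values was not tested. CD14, below 1 normalized CPM in each library, went the other way, with intervals that include 0. Its log2 ratio was 0.54 (-0.72 to 1.80) for 2B-OlapR over C4-2B and -0.24 (-1.83 to 1.34) for LN-OlapR over LNCaP. Of 9 stromal and endothelial markers 4 had values, summing to 11.4 to 31.1 normalized CPM.

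Class I molecules display peptides from inside the cell to CD8+ T cells and natural killer cells. A heavy chain, highly polymorphic in the classical genes, pairs with the invariant light chain B2M. Peptides made by the proteasome are pumped into the endoplasmic reticulum by the TAP1-TAP2 transporter, and tapasin, the product of TAPBP, bridges the transporter to empty heavy chains. NLRC5 is a transactivator that assembles on class I promoters with RFX, CREB and NFY factors, and interferon acts on the same genes through factors such as IRF1. Tumors, prostate cancers among them, are known for low or lost class I expression.

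In the GRCh38 build with GENCODE 29 annotation, 7 of the 9 genes lie in the MHC region of the short arm of chromosome 6. HLA-F spans 29722775 to 29738528 and HLA-E spans 30489467 to 30494205, both on the plus strand. HLA-C spans 31268749 to 31272130 on the minus strand, and the HLA-B model, from 31269491 to 31357188, overlaps it on the same strand. TAP2 (32821833 to 32838780), TAP1 (32845209 to 32853978) and TAPBP (33299694 to 33314387) are also on the minus strand. B2M lies on chromosome 15 from 44711487 to 44718877 and NLRC5 on chromosome 16 from 56989485 to 57083531, both on the plus strand. Heavy chain genes share long stretches of sequence, and the deposited values of HLA-B, HLA-C, B2M, TAP1, TAP2 and TAPBP were not whole numbers in all 4 libraries, with a tolerance of 0.01. At that tolerance HLA-F was not whole in 2 libraries, and HLA-E and NLRC5 were whole in all 4. Of all deposited values 38.0% were not whole, so such values are not particular to heavy chain genes. Whether reads shared between copies were divided is not stated in the sources used here, and the split between HLA-B and HLA-C is uncertain.

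Promoter windows of RefSeq were matched by symbol for 7 of the 9 genes, all but HLA-E and NLRC5. The 250 bases before the RefSeq start site are shown for 5 of them, from GRCh38.p14, 5′ to 3′ on the strand of the gene, because HLA-B and HLA-C had similar ratios to each other in both resistant lines, while HLA-F, B2M and TAPBP had others. Capitals mark matches, on either strand, to 5 motifs: the interferon-response forms GAAANNGAA and GAANNGAAA, the CCAAT box, the core TGACG of the cyclic AMP response element and the NF-kB-type form GGGANTNCC, in which N is any base. Matches may overlap. HLA-B is at chr6:31357180-31357429 (minus strand), HLA-C at chr6:31272093-31272342 (minus), HLA-F at chr6:29723184-29723433 (plus), B2M at chr15:44711267-44711516 (plus) and TAPBP at chr6:33314079-33314328 (minus).
HLA-B: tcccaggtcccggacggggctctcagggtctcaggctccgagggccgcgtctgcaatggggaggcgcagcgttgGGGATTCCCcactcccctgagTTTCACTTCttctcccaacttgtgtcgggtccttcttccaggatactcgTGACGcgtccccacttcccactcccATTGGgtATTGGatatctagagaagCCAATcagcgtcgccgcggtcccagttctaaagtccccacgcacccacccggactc
HLA-C: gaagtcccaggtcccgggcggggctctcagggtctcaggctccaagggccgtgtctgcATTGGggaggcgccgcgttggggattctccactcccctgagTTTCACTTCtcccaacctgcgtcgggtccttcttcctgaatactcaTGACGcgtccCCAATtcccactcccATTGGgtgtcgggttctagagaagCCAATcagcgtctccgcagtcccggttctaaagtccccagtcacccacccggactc
HLA-F: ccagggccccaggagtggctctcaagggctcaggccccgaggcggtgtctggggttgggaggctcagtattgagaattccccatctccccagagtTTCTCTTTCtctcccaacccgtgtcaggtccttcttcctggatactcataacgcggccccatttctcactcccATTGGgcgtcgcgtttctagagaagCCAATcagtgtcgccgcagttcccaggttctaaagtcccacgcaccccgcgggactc
B2M: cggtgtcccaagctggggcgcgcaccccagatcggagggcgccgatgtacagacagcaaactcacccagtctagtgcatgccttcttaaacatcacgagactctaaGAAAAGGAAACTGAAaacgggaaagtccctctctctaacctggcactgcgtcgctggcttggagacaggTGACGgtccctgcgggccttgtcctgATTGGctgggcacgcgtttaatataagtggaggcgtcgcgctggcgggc
TAPBP: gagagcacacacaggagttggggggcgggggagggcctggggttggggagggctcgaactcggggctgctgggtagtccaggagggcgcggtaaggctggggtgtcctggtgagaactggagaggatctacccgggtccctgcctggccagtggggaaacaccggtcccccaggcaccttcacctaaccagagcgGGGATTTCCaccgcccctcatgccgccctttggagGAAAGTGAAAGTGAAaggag

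HLA-B and HLA-C were identical at 91.9% of aligned bases, HLA-B and HLA-F at 83.7%, and HLA-C and HLA-F at 82.7%. HLA-B and HLA-C held the same interferon-response match, read on the opposite strand, whereas HLA-F matched the other form at the same distance as HLA-B, from -155 to -147 relative to the start. B2M and TAPBP each held 2 overlapping matches to GAAANNGAA. GGGANTNCC matched at one site in HLA-B, where the form matched on both strands, and once in TAPBP, while HLA-C, HLA-F and B2M had no match to these letters in this window. TGACG matched in HLA-B, HLA-C and B2M, and CCAAT in HLA-B, HLA-C, HLA-F and B2M. Among 35116 promoter windows of the same length, 6.88% held GAAANNGAA, 6.56% GAANNGAAA, 32.0% CCAAT, 21.2% TGACG and 3.75% GGGANTNCC. The motif forms were chosen after the sequences had been seen, and a match describes letters only.

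HLA-C, a classical heavy chain, had the highest level of the 4 heavy chains examined in every library, also per kilobase. It stood at 156 normalized CPM in 2B-OlapR, 137 in C4-2B, 62.8 in LN-OlapR and 53.9 in LNCaP. Both resistant lines were above their parental lines, and both C4-2B lines were above both LNCaP lines. The log2 ratio was 0.19 (0.12 to 0.26) in the 2B pair (2B-OlapR over C4-2B), 0.22 (0.12 to 0.33) in the LN pair (LN-OlapR over LNCaP) and 1.34 (1.25 to 1.43) between the parental lines (C4-2B over LNCaP). The comparison of parental lines shares a library with each pair. In bulk RNA, fewer expressing cells and less RNA per cell cannot be told apart.

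HLA-B, the other classical heavy chain examined, had the same order of libraries at a lower level. It stood at 36.5 normalized CPM in 2B-OlapR, 30.1 in C4-2B, 22.9 in LN-OlapR and 18.0 in LNCaP. Its log2 ratio was 0.28 (0.13 to 0.43) in the 2B pair, 0.35 (0.17 to 0.53) in the LN pair and 0.74 (0.57 to 0.91) between the parental lines. For both classical genes the 2 pairs could not be told apart by counting error, with a difference of log2 ratios (2B minus LN) of -0.07 (-0.31 to 0.16) for HLA-B and -0.03 (-0.16 to 0.10) for HLA-C.

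HLA-E presents leader peptides of other class I chains to natural killer cell receptors, and in these libraries it was lower in one resistant line and higher in the other. It stood at 21.3 normalized CPM in 2B-OlapR, 29.6 in C4-2B, 17.0 in LN-OlapR and 9.26 in LNCaP. LNCaP was lowest and C4-2B highest, with both resistant lines between them. The log2 ratio was -0.47 (-0.65 to -0.30) in the 2B pair, 0.87 (0.64 to 1.10) in the LN pair and 1.67 (1.46 to 1.89) between the parental lines. The pairs differed by -1.35 (-1.64 to -1.06), which exceeds counting error.

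HLA-F, a further non-classical heavy chain, rests on few reads. It had 65 counts in 2B-OlapR, 87 in C4-2B, 57 in LN-OlapR and 28 in LNCaP, or 3.14, 4.25, 2.44 and 1.04 normalized CPM. As with HLA-E, LNCaP was lowest and C4-2B highest. The log2 ratio was 1.22 (0.57 to 1.87) in the LN pair and 2.01 (1.40 to 2.62) between the parental lines, whereas the interval in the 2B pair, -0.44 (-0.90 to 0.03), includes 0. The pairs differed by -1.65 (-2.45 to -0.86). An antisense gene, HLA-F-AS1, overlaps HLA-F. It stood between 1.03 and 1.71 normalized CPM, and its log2 ratio was -0.02 (2B pair) and -0.01 (LN pair).

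**Figure D1:**
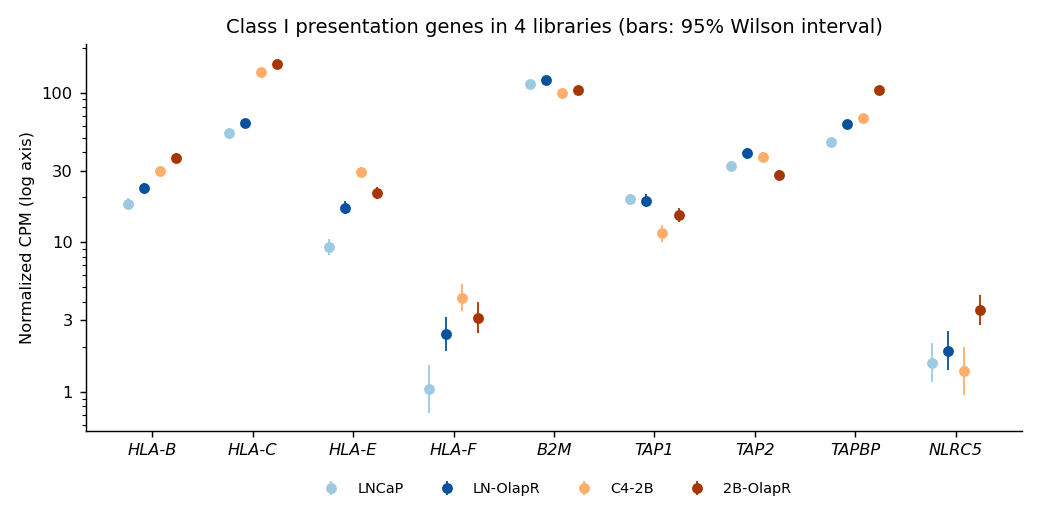
Normalized CPM (log axis) of the 9 class I presentation genes in the 4 libraries, with 1 point per library and 95% Wilson intervals that cover counting error only. HLA-C is near 54 to 63 in both LNCaP lines and 137 to 156 in both C4-2B lines, while B2M stays between 99.6 and 121.

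B2M, the shared light chain, varied least. It stood at 105 normalized CPM in 2B-OlapR, 99.6 in C4-2B, 121 in LN-OlapR and 115 in LNCaP. Both C4-2B lines were below both LNCaP lines, the reverse of the heavy chains. The log2 ratio was 0.07 (-0.01 to 0.16) in the 2B pair, -0.21 (-0.29 to -0.12) between the parental lines, and 0.08 (0.01 to 0.15) in the LN pair, where scaling by total counts turned it to -0.0053.

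Together the 4 heavy chains gave 4491 counts in 2B-OlapR, 4103 in C4-2B, 2454 in LN-OlapR and 2210 in LNCaP. Per B2M count, this is 2.07 (1.96 to 2.18) in 2B-OlapR, 2.01 (1.91 to 2.12) in C4-2B, 0.867 (0.822 to 0.915) in LN-OlapR and 0.716 (0.678 to 0.756) in LNCaP. The ratio of heavy chain to light chain reads was thus more than 2-fold higher in both C4-2B lines than in both LNCaP lines. On the log2 scale it differed by 1.49 (1.38 to 1.60) between the parental lines, 0.28 (0.17 to 0.39) in the LN pair and 0.04 (-0.07 to 0.15) in the 2B pair. HLA-C supplied 71.9% of the heavy chain counts in 2B-OlapR, 68.1% in C4-2B, 59.7% in LN-OlapR and 65.6% in LNCaP. The HLA-E share was 11.3% for LNCaP against 16.1% for LN-OlapR, and 14.7% for C4-2B against 9.82% for 2B-OlapR, which is larger in the resistant line of one pair and smaller in that of the other. Sums and shares are of counts and are not corrected for transcript length.

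**Figure D2:**
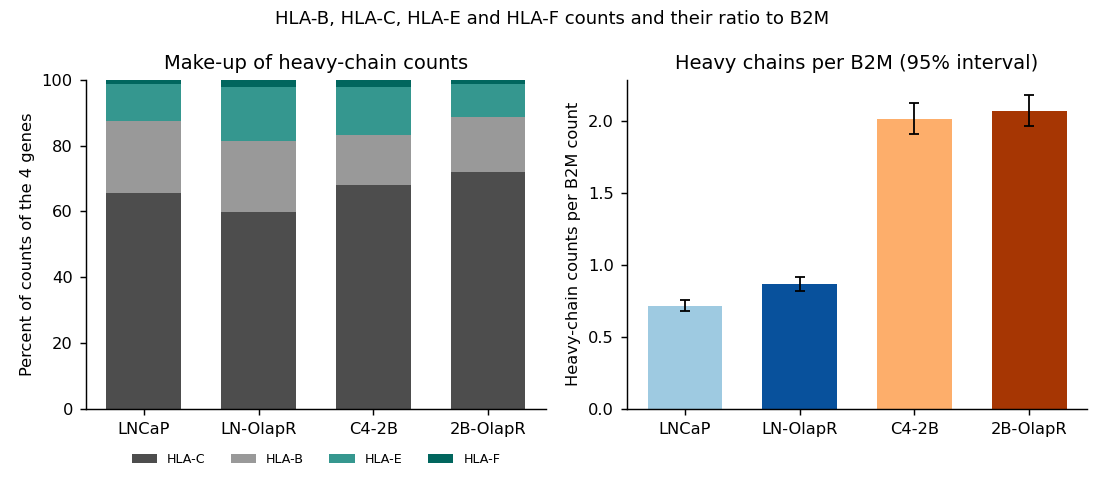
Left, percent of the summed counts of 4 heavy chain genes (HLA-C, HLA-B, HLA-E and HLA-F) taken by each gene in each library. Right, their summed counts per B2M count, with 95% counting intervals. The ratio is 0.716 and 0.867 in LNCaP and LN-OlapR against 2.01 and 2.07 in C4-2B and 2B-OlapR.

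TAP1 and TAP2 encode the partner chains of one transporter, and their orders over the libraries differed. TAP1 stood at 15.2 normalized CPM in 2B-OlapR, 11.4 in C4-2B, 19.0 in LN-OlapR and 19.4 in LNCaP. It was the only 1 of the 7 chromosome 6 members lower in C4-2B than in LNCaP, with a log2 ratio of -0.76 (-0.98 to -0.54). In the 2B pair it was 0.41 (0.17 to 0.65), and in the LN pair -0.03 (-0.21 to 0.15).

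TAP2 stood at 28.2 normalized CPM in 2B-OlapR, 37.3 in C4-2B, 39.7 in LN-OlapR and 32.3 in LNCaP. 2B-OlapR was thus the lowest library for TAP2, while C4-2B was the lowest for TAP1. The log2 ratio of TAP2 was -0.41 (-0.56 to -0.25) for the 2B pair and 0.30 (0.16 to 0.43) for the LN pair, a difference between pairs of -0.70 (-0.91 to -0.50). Counts of TAP1 per count of TAP2 were 0.539 (0.470 to 0.619) in 2B-OlapR, 0.306 (0.265 to 0.355) in C4-2B, 0.478 (0.427 to 0.535) in LN-OlapR and 0.601 (0.539 to 0.670) in LNCaP.

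A protein-coding gene listed as ENSG00000250264 overlaps TAP2 on the same strand, and reads could be divided between them. It stood at 3.47 normalized CPM in 2B-OlapR, 1.08 in C4-2B, 0.643 in LN-OlapR and 1.93 in LNCaP, so its log2 ratios, 1.67 (2B pair) and -1.56 (LN pair), ran against those of TAP2. With both genes summed, the log2 ratio was -0.28 (-0.43 to -0.13) for the 2B pair and 0.24 (0.11 to 0.37) for the LN pair, so the directions of TAP2 held.

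TAPBP was higher in both resistant lines than in their parental lines. It stood at 103 normalized CPM in 2B-OlapR, 67.2 in C4-2B, 61.8 in LN-OlapR and 46.5 in LNCaP. The log2 ratio was 0.62 (0.52 to 0.72) in the 2B pair, 0.41 (0.30 to 0.52) in the LN pair and 0.53 (0.42 to 0.64) between the parental lines. The 2B pair exceeded the LN pair by 0.21 (0.07 to 0.36). HLA-B, HLA-C and TAPBP were the 3 members whose interval lay above 0 in both pairs. Of all genes analyzed, 31.5% had such an interval for the 2B pair alone and 31.7% for the LN pair alone. The share with both was not counted, so these 3 genes give no result about the members as a group.

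NLRC5, the class I transactivator, had few reads. It had 73 counts in 2B-OlapR, 28 in C4-2B, 44 in LN-OlapR and 42 in LNCaP, or 3.52, 1.37, 1.89 and 1.56 normalized CPM. 2B-OlapR stood above the other 3 libraries, whose intervals overlap. The log2 ratio was 1.35 (0.72 to 1.97) in the 2B pair, 0.27 (-0.34 to 0.88) in the LN pair and -0.18 (-0.87 to 0.50) between the parental lines, and the pairs differed by 1.08 (0.21 to 1.95).

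Compared per kilobase of the longest coding transcript, B2M ranked first in LNCaP and LN-OlapR, at 67.4 and 71.2 normalized CPM per kilobase, ahead of HLA-C at 34.7 and 40.4. In C4-2B and 2B-OlapR the order was turned, with HLA-C at 87.9 and 100.3 ahead of B2M at 58.4 and 61.5. This order depends on the lengths used, 1705 bases for B2M and 1554 for HLA-C, and other transcript lengths were not tried. TAPBP and HLA-B followed, and their intervals overlapped in LNCaP, LN-OlapR and C4-2B. TAP1, TAP2 and HLA-E came next. TAP1 and TAP2 could not be ordered in LNCaP, LN-OlapR or 2B-OlapR, and HLA-E could not be ordered against either in LN-OlapR. HLA-F was at rank 8 and NLRC5 at rank 9 in all 4 libraries.

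Counted over the 9 genes, the 2B pair had 6 higher and 3 lower, with a median log2 ratio of 0.19 against -0.00026 over all 15527 genes analyzed. NLRC5 was the 1 member at least 2-fold higher and none was at least 2-fold lower, beside 4.42% and 5.65% of all genes. The interval lay above 0 for 5 members and below 0 for 2, beside 31.5% and 30.8% of all genes. A single gene of 9 past 2-fold is no result about the members as a group.

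In the LN pair, 8 members were higher and 1 lower, B2M being higher by the margin that scaling reversed. The median log2 ratio was 0.30, against -0.0040 over 15373 genes. HLA-F was the 1 member at least 2-fold higher and none was 2-fold lower, beside 4.64% and 4.83% of all genes. The interval lay above 0 for 7 members and below 0 for none, beside 31.7% and 31.3%.

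Between the parental lines, 6 members were higher in C4-2B and 3 lower, with a median of 0.53 against -0.016 over 15580 genes. HLA-C, HLA-E and HLA-F were at least 2-fold higher and none was 2-fold lower, beside 8% and 7.18% of all genes. The interval lay above 0 for 6 members and below 0 for B2M and TAP1, beside 34.1% and 36.2%.

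**Figure D3:**
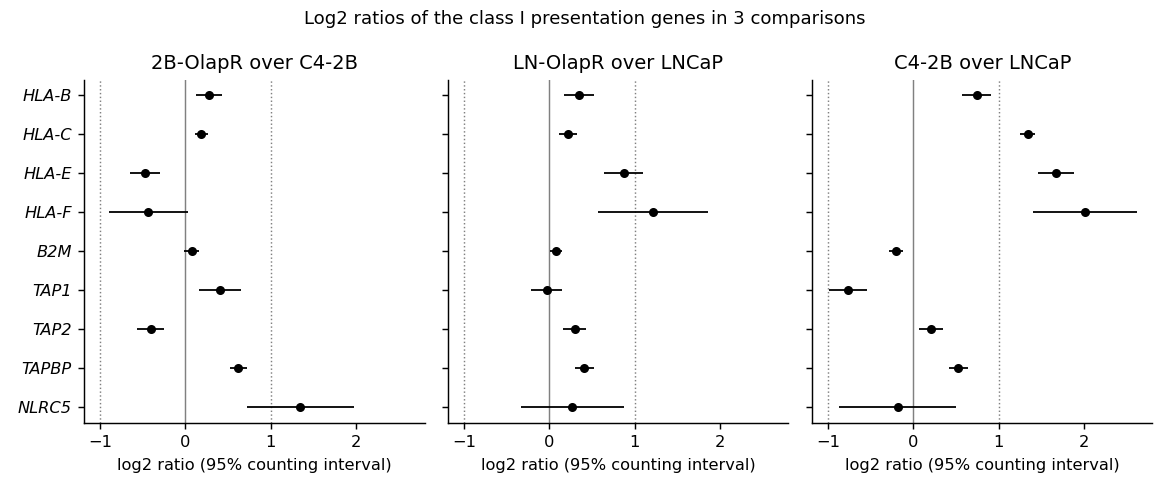
Log2 ratios of the 9 genes in the 2B pair, the LN pair and between the parental lines, with 95% normal counting intervals and the 2-fold lines. The intervals of HLA-B, HLA-C and TAPBP lie above 0 in both pairs, while those of HLA-E and TAP2 have opposite directions, below 0 in the 2B pair only. How many of all genes show either pattern was not counted. B2M in the LN pair, at 0.08, turned to -0.0053 when scaled by total counts.

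The position of the members on chromosome 6 was compared with that of their neighbors. From HLA-F to TAPBP the table holds 139 genes. Between the parental lines, 74 of the 95 other genes there were higher in C4-2B (median log2 ratio 0.52), and so were 6 of the 7 members in the region (median 0.74). The rest of the short arm was also high in C4-2B, with 70.6% of 163 genes higher before HLA-F and 83.5% of 164 genes after TAPBP, while 22.4% of 322 long arm genes and 48.3% of genes on other chromosomes were higher.

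In the 2B pair the region leaned the other way. There 27 of 93 other genes were higher in 2B-OlapR, with a median of -0.23, whereas 4 of the 7 members were higher, with a median of 0.19. Of the genes before HLA-F on the short arm, 16.7% of 162 were higher, beside 44.6% of 168 after TAPBP and 64.8% of 318 on the long arm. In the LN pair 51 of 95 other genes of the region were higher, with a median of 0.06. The part of these shifts along the chromosome in the ratios of the 7 members was not tested. B2M and NLRC5 lie on other chromosomes. Apart from members, C2, a complement gene, and ENSG00000250264 were the region's genes at least 2-fold different in both pairs, and C2 had log2 ratios of -1.64 (2B pair) and 1.16 (LN pair).

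**Figure D4:**
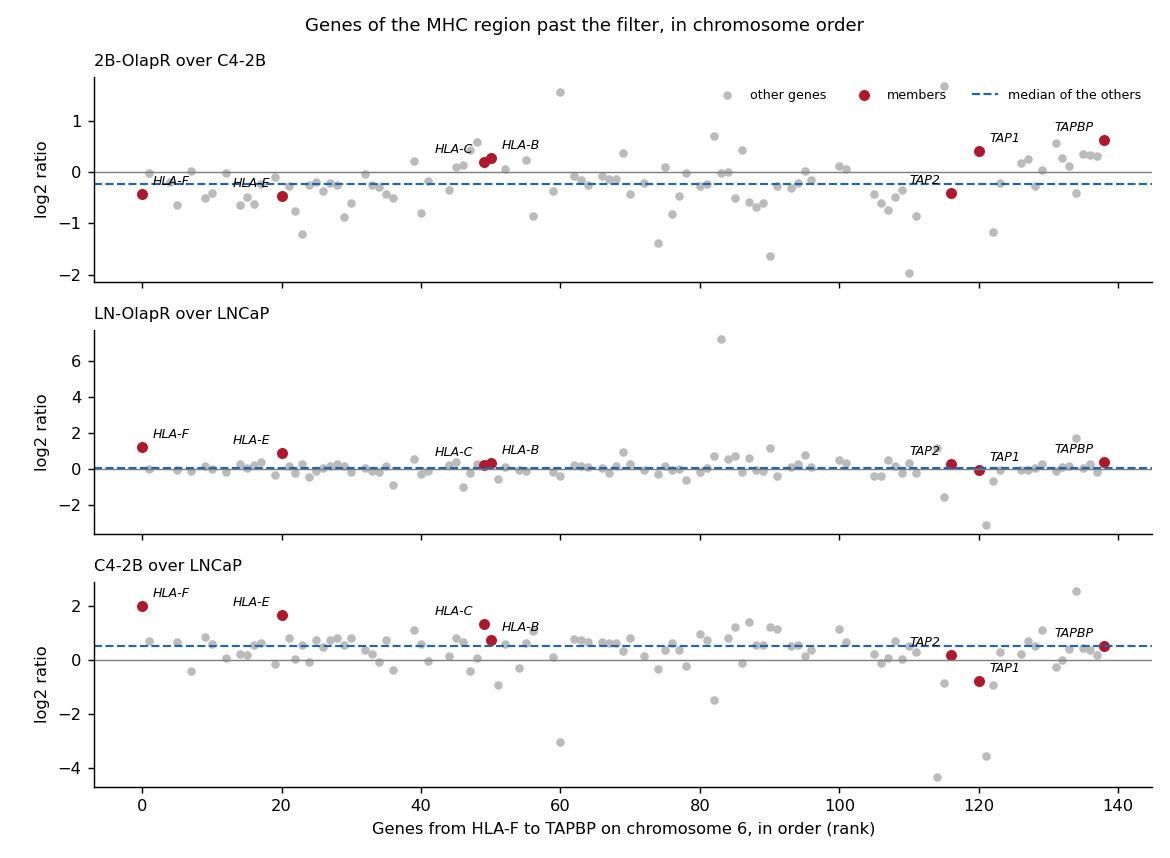
Log2 ratio of each gene past the filter from HLA-F to TAPBP on chromosome 6, plotted by its rank along the chromosome, with members in red, other genes in gray and a dashed line at the median of the others. The dashed line lies at -0.23 in the 2B pair, 0.06 in the LN pair and 0.52 between the parental lines.

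Other genes of the pathway were counted from lists. Of 10 genes of peptide loading and trimming, 6 were higher and 4 lower in the 2B pair (median 0.02), with 3 higher and 7 lower for the LN pair (median -0.14). ERAP2, an aminopeptidase that trims peptides in the endoplasmic reticulum, had 40 counts in 2B-OlapR, 14 in C4-2B, 14 in LN-OlapR and 47 in LNCaP. It was the highest gene of the list in the 2B pair, at 1.46 (0.60 to 2.33), and the lowest in the LN pair, at -1.51 (-2.36 to -0.66). Its relative ERAP1 was at 0.91 (0.66 to 1.15) and -0.13 (-0.35 to 0.09). HSP90B1, an endoplasmic reticulum chaperone, was lowest in the 2B pair at -0.93 and stood at -0.45 in the LN pair, and CANX, the chaperone calnexin, was highest in the LN pair at 0.34.

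The immunoproteasome is the form of the proteasome that interferon induces. Of its 6 listed genes, 4 passed the filter, with 3 higher and 1 lower in each pair and medians of 0.06 (2B pair) and 0.22 (LN pair). PSMB10, one of its catalytic subunits, was highest in both pairs, at 0.27 (0.08 to 0.46) and 0.40 (0.22 to 0.59). PSME2, a subunit of the proteasome activator, was at -0.50 in the 2B pair but 0.29 in the LN pair, and POMP, an assembly factor, was lowest in the LN pair at -0.03. The other two catalytic subunits were below the filter, with 1, 1, 17 and 6 counts of PSMB8 and 5, 10, 4 and 15 of PSMB9 in LNCaP, LN-OlapR, C4-2B and 2B-OlapR, in that order. PSMB8 and PSMB9 were named after their values had been seen. They neighbor TAP1, and PSMB9 overlaps it on the opposite strand.

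The list named for the constitutive proteasome also holds proteasome activators and subunits that both forms share. All of its 16 genes differed less than 2-fold in both pairs. In the 2B pair 9 of the 16 genes were higher and 7 lower, with a median of 0.07, from PSMB5 at -0.52 to PSMB7 at 0.35. In the LN pair 10 were higher and 6 lower, with a median of 0.11, from PSMA1 at -0.45 to PSMB3 at 0.33.

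Of 21 listed regulators of class I transcription, 11 were higher and 10 lower in the 2B pair (median 0.03), with 14 higher and 7 lower for the LN pair (median 0.11). IRF1, an interferon-response factor, stood at 8.59 normalized CPM in 2B-OlapR, 4.30 in C4-2B, 4.80 in LN-OlapR and 5.21 in LNCaP. As with NLRC5, 2B-OlapR stood above the other 3. The log2 ratio of IRF1 was the highest of the list in the 2B pair, at 0.99 (0.63 to 1.36), and -0.12 (-0.47 to 0.24) in the LN pair. JAK1, a kinase of the interferon receptors, was low, at 3.23 to 3.94 normalized CPM over the 4 libraries, and its intervals include 0 in both pairs. RFX5, a subunit of the RFX complex on class I promoters, was at 0.23 (0.14 to 0.33) and 0.15 (0.07 to 0.22). At least 2-fold differences were seen for NFYB, a subunit of the CCAAT-binding factor, at -1.16 in the 2B pair, and for RFXAP at 1.07 and JAK2 at -1.05 in the LN pair. Between the parental lines 5 regulators were higher in C4-2B and 16 lower, from JAK2 at -1.36 to NFKB1 at 0.69.

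**Figure D5:**
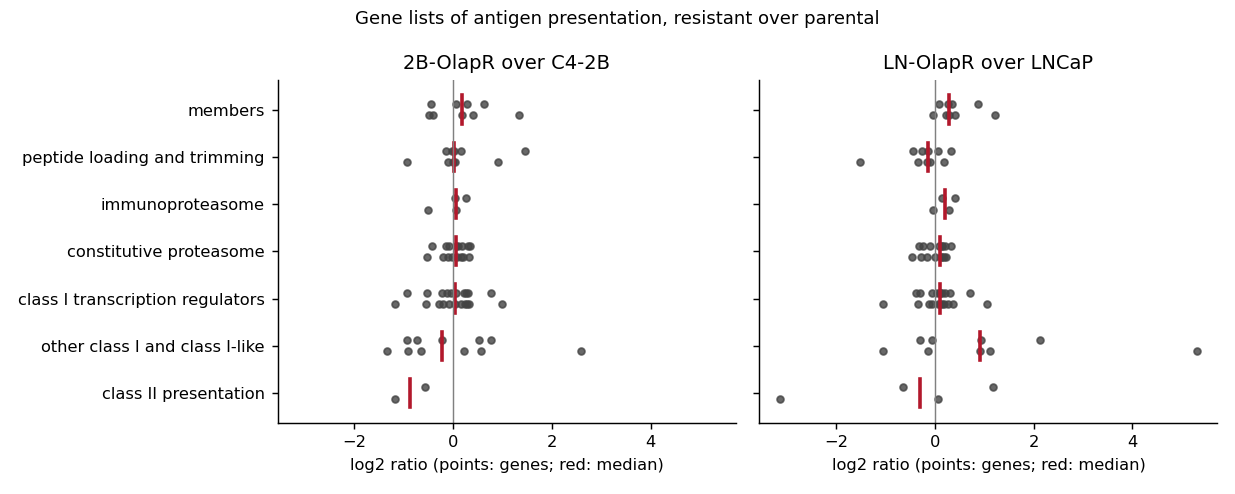
Log2 ratios of the genes past the filter in each pathway list, with 1 point per gene and the list median as a bar, in the 2B pair and the LN pair. The median of the 9 members is 0.19 and 0.30, and those of the regulators are 0.03 and 0.11.

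Other class I and class I-like genes spanned log2 ratios of -1.33 to 2.59 in the 2B pair and of -1.05 to 5.30 in the LN pair. Of the 21 listed, 11 passed the filter in the 2B pair, with 5 higher and 6 lower (median -0.22), and 9 in the LN pair, with 5 higher and 4 lower (median 0.93). RAET1E, a ligand of the NKG2D receptor, had 39 counts in 2B-OlapR, 6 in C4-2B, 58 in LN-OlapR and 15 in LNCaP, and both resistant lines were past 2-fold above their parents. Its log2 ratio was 2.59 (1.39 to 3.78) for the 2B pair and 2.12 (1.31 to 2.93) for the LN pair. MR1, which presents metabolites to T cells, was at -1.33 (-2.09 to -0.57) in the 2B pair but 1.12 (0.77 to 1.48) in the LN pair. AZGP1, a secreted class I-like protein of prostate epithelium, was at 91.1 normalized CPM in 2B-OlapR, 172 in C4-2B, 878 in LN-OlapR and 22.3 in LNCaP. Its log2 ratio was -0.92 in the 2B pair but 5.30 in the LN pair. ULBP3, another NKG2D ligand, was lowest in the LN pair at -1.05 and stood at -0.91 in the 2B pair.

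Class II presentation genes were mostly at low levels. Of 15 listed, 8 had values, of which 2 passed the filter in the 2B pair, and 4 did in the LN pair. In the 2B pair CIITA, the class II transactivator, was at -0.56 and HLA-DMA at -1.16. In the LN pair 2 were higher and 2 lower, from HLA-DMB at -3.12 to HLA-DQB1 at 1.19. HLA-DQB1 had 93 counts in LNCaP and 184 in LN-OlapR, but 3 in C4-2B and 6 in 2B-OlapR.

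The mean profile of the 9 members over the 4 libraries, each centered on its own mean log2 level, was compared with 9907 other genes of at least 10 normalized CPM. The nearest by Euclidean distance were USPL1 (0.032), SLC3A2 (0.048), HGS (0.050), RPS6KA4 (0.056) and QSOX2 (0.057). The members themselves were spread around this mean profile. HLA-B was the closest at 0.24, with 388 genes nearer than it, and TAP1 the farthest at 1.08, with 7838 genes nearer. With 4 libraries, likeness of profile rests on 4 values.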

How the data were processed

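Libraries from 4 cell lines were made with a stranded mRNA kit from 100 ng of RNA. Estimated counts per gene were deposited by the authors, not scaled between libraries, of which 38.0% were not whole numbers at a tolerance of 0.01. The submitters' processing notes name STAR, Partek and the GRCh38/hg38 build; the counting method and annotation are not given in the sources used here. Every gene listed sums to 10 or more, and there are no columns of the authors' own comparisons. Groups were taken from the cell line labels, with 1 library each.

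Values were rounded to whole counts and scaled with TMM factors of edgeR 4.0.16 in R 4.3.3. Ratios, intervals and figures were made in Python 3.11.15 with numpy 2.4.6, pandas 2.3.3, SciPy 1.17.1, Biopython 1.88 and matplotlib 3.10.9. A count of 0 allows up to 3 counts. No molecular identifiers are described, and intervals cover counting error only. The scripts were tested on simulated data. Gene positions and transcript lengths came from GENCODE 29, which matched 94.5% of identifiers, and promoters from RefSeq.

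The 9 members and the 10 lists, which hold the members, pathway genes and cell markers, were chosen with earlier results of these data known. The rule for named genes takes all members, JAK1, IRF1 and RFX5, genes of a list at least 2-fold different or at the ends of its range in a pair, the 5 nearest profiles, and genes of the MHC region at least 2-fold different in both pairs. CD14, ERAP1, HLA-F-AS1, PSMB8 and PSMB9 are not named by it and were added once their values were known. Alternatives were scaling by total counts, upper quartile factors of edgeR or size factors of DESeq2 1.42.0, a pseudocount of 2, no filter, a minimum of 10 normalized CPM, and values not rounded. DESeq2 was used for size factors only. Some genes of the lists are not reported here.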

Additional observations from a re-analysis of the deposited data

Results flagged for a closer look

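Several of the genes named in these results had log2 ratios in opposite directions in the 2 pairs, with both counting intervals clear of 0. Listed genes that are not named also met this, among the pathway genes and the cell markers. The difference between the pairs (2B minus LN) was not tested across cultures, as each line has 1 library. Among the members it was -1.35 for HLA-E and -0.70 for TAP2, and ENSG00000250264, which overlaps TAP2, had 3.23. Among the other pathway genes it was 2.97 for ERAP2, -2.46 for MR1, -6.22 for AZGP1, -1.25 for NFKB1, -0.79 for PSME2 and -0.64 for PSMB5. C2, in the MHC region, had -2.80. Among the cell markers it was -4.54 for CD68, -2.65 for KLK2, -6.03 for KLK3 and -2.25 for PDGFRB. KLK2, KLK3 and AZGP1 were all higher in LN-OlapR than in LNCaP, at log2 ratios of 2.56, 5.66 and 5.30. Over all genes, the interval lay above 0 for 31.5% and below 0 for 30.8% in the 2B pair. In the LN pair these shares were 31.7% and 31.3%. The share of all genes with opposite directions was not counted, so HLA-E and TAP2 give no result about the members as a group.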

How the results depend on the processing

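The members' log2 ratios, their medians and their 2-fold counts were also computed under scaling by total counts, DESeq2 size factors and upper quartile factors, with a pseudocount of 2, without the filter, with a minimum of 10 normalized CPM and without rounding. Of 183 log2 ratios of single members under these alternatives, 182 kept their direction. The exception was B2M in the LN pair, 0.08 as reported and -0.0053 when scaled by total counts, a scaling that moves every log2 ratio of the LN pair by -0.08 and of the 2B pair by -0.04. The number of members at least 2-fold higher went from 1 to 0 in each pair under a minimum of 10 normalized CPM, and from 3 to 2 between the parental lines, because NLRC5 and HLA-F lie below it. The medians kept their direction and the counts of members 2-fold lower stayed at 0. The 27 differences between the pairs were computed under the 3 scalings only, and 24 kept their sign. The others were HLA-C, from -0.03 to 0.01 under total counts, and B2M, from -0.0058 to 0.036 under total counts and 0.013 under upper quartile factors, each with an interval that includes 0 as reported. Values of the other gene lists, the chromosome and the count ratios were not recomputed. No replicate could be left out. No paired analysis was possible because each comparison sets 1 library against 1 and comes from no test. A fit over both backgrounds as blocks, which answers another comparison, was not run. HLA-F and NLRC5, with 28 to 87 counts, have the widest intervals. Differences between cultures of one line cannot be told apart from differences between lines.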

Other observations

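Of the genes on the short arm of chromosome 6 before HLA-F, 39.5% of 147 were above LNCaP in LN-OlapR (median log2 ratio -0.11). The medians there were -0.38 in the 2B pair and 0.31 between the parental lines. On the long arm the medians were 0.18 in the 2B pair, -0.04 in the LN pair and -0.46 between the parental lines. Among the members of the peptide loading list, ERAP2 was also 2-fold lower in C4-2B than in LNCaP, at -1.32 (-2.17 to -0.47). Between the parental lines HFE was at 1.58, PROCR at 1.49, AZGP1 at 2.95 and ULBP1 at -1.17 among class I-like genes, and HLA-DQB1 at -4.35 and HLA-DMB at -3.55 among class II genes. Of the 11 luminal prostate markers, 2 were higher and 9 lower in the 2B pair, with TMPRSS2 highest at 1.01, and in the LN pair, with 5 higher and 6 lower, TMPRSS2 was at 1.28 and EPCAM lowest at -0.47. Of the stromal and endothelial markers, COL1A1 was at -1.17 and VWF at -2.21 in the 2B pair, and PDGFRB was at 1.52 and COL1A1 at -0.88 in the LN pair.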
